A study of Homo sapiens with 9 samples.

Results

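The snoRNA host genes described here are GAS5, SNHG1, SNHG3, SNHG5, SNHG6, SNHG7, SNHG8, SNHG12, SNHG15 and ZFAS1, 10 spliced noncoding genes of the 51796 gene identifiers in the count table and the 57865 entries of each FPKM table. They were chosen by name, as hosts whose spliced RNA is known to be sensitive to nonsense-mediated decay (NMD). Of the 10, 9 had counts and all passed the filter on low counts. SNHG8 (ENSG00000269893) was matched in the FPKM tables only. RNA came from A549, an epithelial line of a human lung adenocarcinoma, after 7 days. A group of 3 libraries received 1 µM GSK591, which inhibits PRMT5, the main enzyme placing symmetric dimethylarginine on proteins. Another group of 3 received 1 µM MS023, which inhibits the type I enzymes that place asymmetric dimethylarginine. The 3 libraries of the control group came from cells given DMSO. Treated plates were seeded with 0.4 and control plates with 0.2 times 1e5 cells, so effects of treatment and of seeding density cannot be told apart. RNA was depleted of ribosomal RNA and primed with random hexamers. The labels do not say that the 3 RNA samples of a group came from separate cultures, so p-values reflect only how far these libraries varied, which may be technical.

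A snoRNA host carries small nucleolar RNAs in its introns. After splicing, the introns are trimmed to the snoRNAs, which guide methylation or pseudouridylation of ribosomal RNA, and the joined exons leave as a separate RNA. In these hosts the exons hold little or no conserved coding sequence. Ribosomes that engage short reading frames in them expose the RNA to NMD, so the level of the spliced host and that of its snoRNAs need not follow each other. Transcription of such hosts often starts at a tract of pyrimidines, as in ribosomal protein genes.

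Libraries held 31398075 to 51244525 counts. GSK591 replicate 3 carried 928 CPM (counts scaled to an equal total in each library) of mitochondrial rRNA, against 0.401 to 20.1 in the other libraries. DMSO replicate 1, with 20.1 CPM, had the most among controls, near GSK591 replicate 1 at 17.9. DMSO replicate 1 was the lowest control in CPM for 8 of the 9 hosts counted, all but SNHG7. The share of all genes for which it was lowest was not taken, and a link to its mitochondrial rRNA was not tested. In such bulk RNA, a change in every cell and a change in the share of cells expressing a gene cannot be told apart. Epithelial markers were present, with KRT8 at 2560 to 4300 and KRT18 at 1210 to 2020 CPM. Of markers of other cell types, PTPRC, CD3E, DCN and VWF had at most 6 counts in any library, while COL1A1 reached 26.8 and CD14 reached 8.70 CPM.

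The starts of the 4 hosts with the largest changes in counts against DMSO are shown so that the letters around the start can be compared. Each line gives 50 bases before and 50 bases after the start annotated by RefSeq (GRCh38.p14), on the strand of the gene. Capitals mark the longest run of C or T and, where found, TATAA. The run of SNHG3 has 6 bases, the median of all windows, and that of GAS5 begins 32 bases after the start. Each host has a single annotated start here, and whether transcription in these cells begins there was not tested. SNHG3 lies at chr1:28505893-28505992 on the plus strand, SNHG7 at chr9:136728135-136728234, SNHG12 at chr1:28581824-28581923 and GAS5 at chr1:173868996-173869095, all 3 on the minus strand.
SNHG3: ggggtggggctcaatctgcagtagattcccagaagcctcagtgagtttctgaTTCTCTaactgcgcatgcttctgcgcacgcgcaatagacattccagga
SNHG7: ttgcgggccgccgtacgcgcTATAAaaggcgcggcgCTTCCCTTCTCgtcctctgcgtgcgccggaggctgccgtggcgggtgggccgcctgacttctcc
SNHG12: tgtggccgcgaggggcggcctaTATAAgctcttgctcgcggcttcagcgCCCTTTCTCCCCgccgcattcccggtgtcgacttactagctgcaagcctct
GAS5: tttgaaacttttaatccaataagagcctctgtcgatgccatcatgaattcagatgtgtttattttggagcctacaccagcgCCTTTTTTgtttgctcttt

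RefSeq windows were used for 8 of the 10 hosts, without SNHG6 and SNHG15. Hosts on chromosome 8, where SNHG6 lies, were not taken, and no single window was matched for SNHG15. TATAA was found on the strand of the gene in 5 of the 8 (SNHG5, SNHG7, SNHG8, SNHG12 and ZFAS1), and in 6.2% of all 35116 promoter windows of the same length. On either strand it was found in 6 of the 8, and in 8.34% of all windows. The longest pyrimidine run of the 8 hosts was 6 to 12 bases with a median of 7.5, against a median of 6 over all windows, and 35.9% of all windows held a run of 7.5 bases or longer. TATAA and the run do not overlap, and both were chosen for counting after the sequences had been read. These matches describe the letters in the windows only.

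In CPM per kilobase of exon (exon union of GENCODE v29), the hosts differed widely in level, from SNHG5 at 30.2 ± 1.56, SNHG6 at 28.96 ± 3.08 and ZFAS1 at 24.0 ± 1.25, through GAS5 at 17.3 ± 2.37 and SNHG1 at 12.7 ± 1.69, to SNHG7 at 7.90 ± 1.64, SNHG3 at 5.48 ± 1.12, SNHG12 at 2.40 ± 0.467 and SNHG15 at 2.36 ± 0.253. These SDs run over all 9 libraries and so include differences between the groups. The exon union pools all annotated transcripts, from 1247 bases for SNHG6 to 4345 for SNHG7, so the order depends on these lengths too. Without division by length, after TMM scaling, SNHG6 averaged 36.9 CPM in DMSO. That was below GAS5 at 66.6, ZFAS1 at 53.1 and SNHG1 at 44.4 CPM. The annotation used for the deposited counts is not given. The order of neighbours differed between the groups (SD, n = 3 each). SNHG6 stood at 26.3 ± 0.604 in GSK591 libraries, below SNHG5 at 30.9 ± 1.01. In MS023 SNHG6 at 31.6 ± 2.20 and SNHG5 at 30.7 ± 1.35 lay within their SDs, as did both in DMSO, SNHG6 at 28.9 ± 3.38 and SNHG5 at 28.9 ± 1.85. SNHG7 and SNHG3 lay close in GSK591, at 7.00 ± 0.319 and 6.71 ± 0.294. SNHG7 was the higher of the pair by more than the SDs in MS023, at 10.04 ± 0.472 against 5.47 ± 0.259, and in DMSO, at 6.66 ± 0.218 against 4.25 ± 0.603. SNHG12 was above SNHG15 in GSK591, at 2.92 ± 0.239 against 2.10 ± 0.106, and below it in MS023, at 2.17 ± 0.194 against 2.56 ± 0.0537. In DMSO these lowest hosts lay within their SDs, SNHG12 at 2.11 ± 0.408 and SNHG15 at 2.43 ± 0.277.

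In GSK591-treated cells the hosts divided. SNHG3, SNHG12 and SNHG1 rose, by fitted folds of 1.51, 1.32 and 1.23, while SNHG15 and SNHG6 fell and GAS5, SNHG5, SNHG7 and ZFAS1 did not pass the test. That makes 5 of 9 hosts called by edgeR's quasi-likelihood test at an adjusted p under 0.05, where 62.6% of the 18292 genes tested were called. By direction, 3 of 9 were higher, beside 30.1% of all genes, and 2 of 9 lower, beside 32.4%. The share of called hosts was thus near that of all genes. The median log2 change of the 9 hosts was 0.03, beside 0.0058 over all genes. Levels from here on are CPM after TMM scaling, and changes are fitted log2 values ± SE. Whether libraries overlap with those of DMSO is stated per host, without its share over all genes. That share was taken only for MS023 against GSK591, where 70.5% of all genes tested did not overlap, so separation alone is common there.

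SNHG3 (ENSG00000242125, hg19 chr1:28832491-28837404), host of the H/ACA box snoRNAs SNORA73A and SNORA73B, had 25.5, 27.5 and 27.8 CPM in GSK591 libraries, against 15.98, 16.9 and 20.4 CPM in DMSO libraries. All GSK591 libraries lay above all DMSO libraries. The log2 change was 0.60 ± 0.08 (edgeR adjusted p = 8.01e-06). SNHG12 (ENSG00000197989, hg19 chr1:28905049-28909495), which hosts SNORD99 and H/ACA snoRNAs, had 11.1, 12.9 and 12.8 CPM in GSK591 libraries, against 7.60, 9.06 and 10.98 CPM in DMSO libraries. The groups were separate, although GSK591 replicate 1 and DMSO replicate 3 lay close to each other. Its log2 change was 0.40 ± 0.11 (edgeR adjusted p = 0.00539). SNHG1 (ENSG00000255717, hg19 chr11:62619459-62623386), host of a cluster of C/D box snoRNAs, had 51.9, 53.5 and 58.4 CPM in GSK591 libraries, against 41.6, 43.3 and 48.3 CPM in DMSO libraries. These groups did not overlap either, and the log2 change was 0.30 ± 0.05 (edgeR adjusted p = 0.000254).

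SNHG15 (ENSG00000232956, hg19 chr7:45022621-45026560), host of SNORA9, had 7.83, 7.01 and 7.76 CPM in GSK591 libraries, against 8.10, 9.10 and 10.0 CPM in DMSO libraries. The GSK591 libraries were all lower, and the log2 change was -0.28 ± 0.08 (edgeR adjusted p = 0.00852). SNHG6 (ENSG00000245910, hg19 chr8:67833918-67838633), host of SNORD87, had 32.5, 30.9 and 33.4 CPM in GSK591 libraries, against 32.2, 38.8 and 39.7 CPM in DMSO libraries. Here DMSO replicate 1 lay among the GSK591 libraries. The log2 change of -0.20 ± 0.07 passed (edgeR adjusted p = 0.0253), but the call was lost when DMSO replicate 2 (adjusted p = 0.121) or 3 (0.111) or GSK591 replicate 1 (0.0664) or 2 (0.102) was left out. It was also lost with scaling by total counts (0.106) and with a filter of 1 CPM (0.0784), within a range of 0.000315 to 0.121 over the alternatives.

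GAS5 (ENSG00000234741, hg19 chr1:173833037-173838020), a growth-arrest transcript that hosts C/D box snoRNAs, had 68.1, 69.0 and 72.6 CPM in GSK591 libraries, against 64.1, 68.0 and 67.8 CPM in DMSO libraries. The groups did not overlap, yet the log2 difference of 0.07 ± 0.04 did not pass (edgeR adjusted p = 0.155). It passed with scaling by total counts (0.13, adjusted p = 0.0121) and with a filter of 1 CPM (0.12, adjusted p = 0.0203), within a range of 0.0121 to 0.491 over the alternatives. SNHG7 (ENSG00000233016, hg19 chr9:139615817-139622636), host of SNORA17A and SNORA17B, averaged 29.9 ± 1.81 CPM in GSK591 and 29.6 ± 0.856 CPM in DMSO (SD, n = 3 each). SNHG5 (ENSG00000203875, hg19 chr6:86370709-86388451), host of SNORD50B, averaged 85.1 ± 4.59 CPM in GSK591 and 83.2 ± 4.94 CPM in DMSO. ZFAS1 (ENSG00000177410, hg19 chr20:47894714-47905797), host of SNORD12, SNORD12B and SNORD12C, averaged 52.5 ± 1.86 CPM in GSK591 and 53.1 ± 3.46 CPM in DMSO. The libraries of both groups overlapped for these last hosts, with edgeR adjusted p of 0.834 for SNHG7, 0.600 for SNHG5 and 0.744 for ZFAS1.

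**Figure D1:**
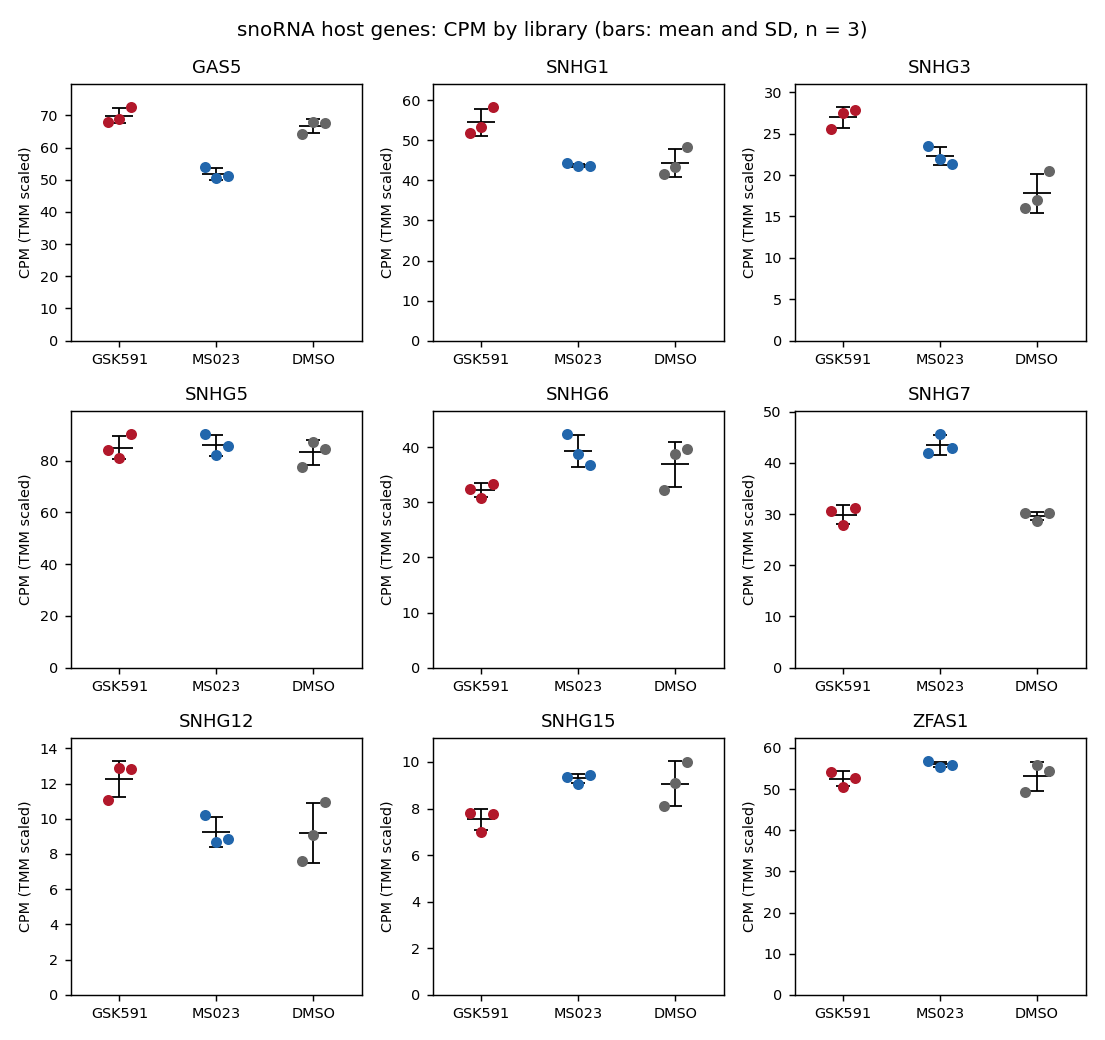
CPM after TMM scaling for the 9 hosts with counts, 1 panel per gene, with a point for each library (replicates 1, 2 and 3 from left to right) and bars for the mean and SD of 3 libraries. SNHG3 stands highest in GSK591, SNHG7 highest in MS023 (41.8 to 45.6 CPM), and GAS5 lowest in MS023 (50.6 to 53.9 CPM).

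In MS023-treated cells SNHG7 and SNHG3 rose and GAS5 fell. The other 6 hosts did not pass. The 3 of 9 called compare with 51.0% of all genes tested (edgeR, adjusted p under 0.05), with 2 of 9 higher beside 25.1% and 1 of 9 lower beside 25.9%. The median log2 change of the 9 hosts was 0.05, beside -0.0030 over all genes. Both comparisons with DMSO use the same 3 control libraries.

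SNHG7 had 41.8, 45.6 and 42.9 CPM in MS023 libraries, against 30.1, 28.6 and 30.1 CPM in DMSO libraries. The groups lay far apart, and the fold was 1.47 (log2 0.55 ± 0.05, edgeR adjusted p = 4.66e-07). GAS5 had 53.9, 50.6 and 51.1 CPM in MS023 libraries, against 64.1, 68.0 and 67.8 CPM in DMSO libraries. It was lower in each MS023 library than in each DMSO library, by -0.36 ± 0.04 (edgeR adjusted p = 4.46e-06). SNHG3 had 23.5, 22.0 and 21.4 CPM in MS023 libraries, against the 15.98, 16.9 and 20.4 CPM of DMSO libraries given above. MS023 replicate 3 and DMSO replicate 3 were close but did not cross, and the change was 0.32 ± 0.08 (edgeR adjusted p = 0.00276).

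For SNHG1 the mean was 43.8 ± 0.438 CPM in MS023 and 44.4 ± 3.47 CPM in DMSO, and for SNHG12 9.24 ± 0.855 CPM in MS023 and 9.21 ± 1.70 CPM in DMSO (SD, n = 3 each). Both had risen in GSK591, and neither passed here (edgeR adjusted p = 0.779 for SNHG1 and 0.985 for SNHG12). SNHG15 averaged 9.29 ± 0.207 CPM in MS023 and 9.07 ± 0.955 CPM in DMSO. SNHG6 averaged 39.3 ± 2.84 CPM in MS023 and 36.9 ± 4.06 CPM in DMSO. The means of SNHG5 were 85.96 ± 4.05 CPM in MS023 and 83.2 ± 4.94 CPM in DMSO, and those of ZFAS1 56.0 ± 0.678 CPM in MS023 and 53.1 ± 3.46 CPM in DMSO. These 4 had edgeR adjusted p of 0.191 to 0.795. The libraries of MS023 and DMSO overlapped for each of these hosts. The ZFAS1 difference passed without DMSO replicate 2 (adjusted p = 0.0471), within a range of 0.0471 to 0.466 over the alternatives.

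In the direct comparison of the inhibitors, SNHG7 (log2 0.54 ± 0.05), SNHG15 (0.31 ± 0.08) and SNHG6 (0.29 ± 0.07) were higher in MS023 than in GSK591. GAS5 (-0.43 ± 0.04), SNHG12 (-0.41 ± 0.11), SNHG1 (-0.32 ± 0.05) and SNHG3 (-0.27 ± 0.07) were lower. Adjusted p from edgeR ran from 2.40e-07 for SNHG7 to 0.00486 for SNHG3, and for all 7 the libraries of the 2 groups did not overlap, as for 70.5% of all genes tested. These 7 of 9 stand beside 65.4% of all genes tested, the 3 higher beside 33.6% and the 4 lower beside 31.7%. SNHG5 (adjusted p = 0.804) and ZFAS1 (0.0884) did not pass, although the MS023 libraries of ZFAS1, 55.4 to 56.8 CPM, all lay above its GSK591 libraries, 50.5 to 54.2 CPM. ZFAS1 passed with no filter on low counts (0.029) and without DMSO replicate 1 (0.0438), within a range of 0.029 to 0.320. The same 7 hosts differed among the 3 groups in edgeR's F-test, where 78.1% of all genes did.

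The FPKM tables (fragments scaled to gene length and depth, with the bounds of the authors' interval) gave another picture for several hosts. Tested with limma on log2(FPKM + 1), 2 of 10 hosts were lower in GSK591 than in DMSO, SNHG7 (-1.52 ± 0.42, adjusted p = 0.0113) and SNHG6 (-0.32 ± 0.12, adjusted p = 0.045), and none was higher, where 59.2% of 13526 genes tested were called, 38.6% lower and 20.6% higher. In MS023 against DMSO 1 of 10 was called, GAS5 (-0.46 ± 0.08, adjusted p = 0.00133), where 42.5% of genes were, 21.6% lower. In MS023 against GSK591 4 of 10 were called, SNHG7 (1.16 ± 0.42), SNHG8 (0.63 ± 0.20) and SNHG6 (0.59 ± 0.12) higher and GAS5 (-0.32 ± 0.08) lower, with limma adjusted p of 0.00222 to 0.0368, where 61.6% of genes were, 39.0% higher and 22.5% lower. Over all genes, 34.7% of the calls in GSK591 against DMSO were increases in FPKM as deposited, and 48.1% after each library was centred on its median.

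For 9 hosts with both measures, the sign of the difference was opposite in 6 for GSK591 against DMSO (GAS5, SNHG3, SNHG5, SNHG7, SNHG15 and ZFAS1). It was opposite in 3 for MS023 against DMSO (SNHG1, SNHG5 and SNHG7) and in 3 for MS023 against GSK591 (SNHG1, SNHG3 and SNHG15). In GSK591 against DMSO, GAS5, SNHG5 and ZFAS1 were called by neither measure. ZFAS1 lay near 0 in both, at -0.0186 in counts and 0.0039 in FPKM, so its opposite sign means little. The share of opposite signs over all genes was not taken. The median over all genes in GSK591 against DMSO was 0.0058 in counts and -0.0954 in FPKM. No host was called in opposite directions by both measures in the same comparison. GAS5 was called lower by both in both comparisons of MS023, and SNHG6 and SNHG7 were called higher by both in MS023 against GSK591. For SNHG7 that call in FPKM (limma adjusted p = 0.0368) was lost in 6 of 14 alternatives. These were no filter on low values (0.12), and fits without GSK591 replicate 1 (0.104) or 3 (0.141), MS023 replicate 1 (0.124) or 2 (0.0637), or DMSO 1 and GSK591 3 together (0.137). SNHG6 was also called lower by both in GSK591 against DMSO, but its call in FPKM was lost in 9 of 14 alternatives, with a limma adjusted p up to 0.156. Among them were no filter (0.131), centring on the median (0.0936) and the replicate block (0.0819).

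**Figure D2:**
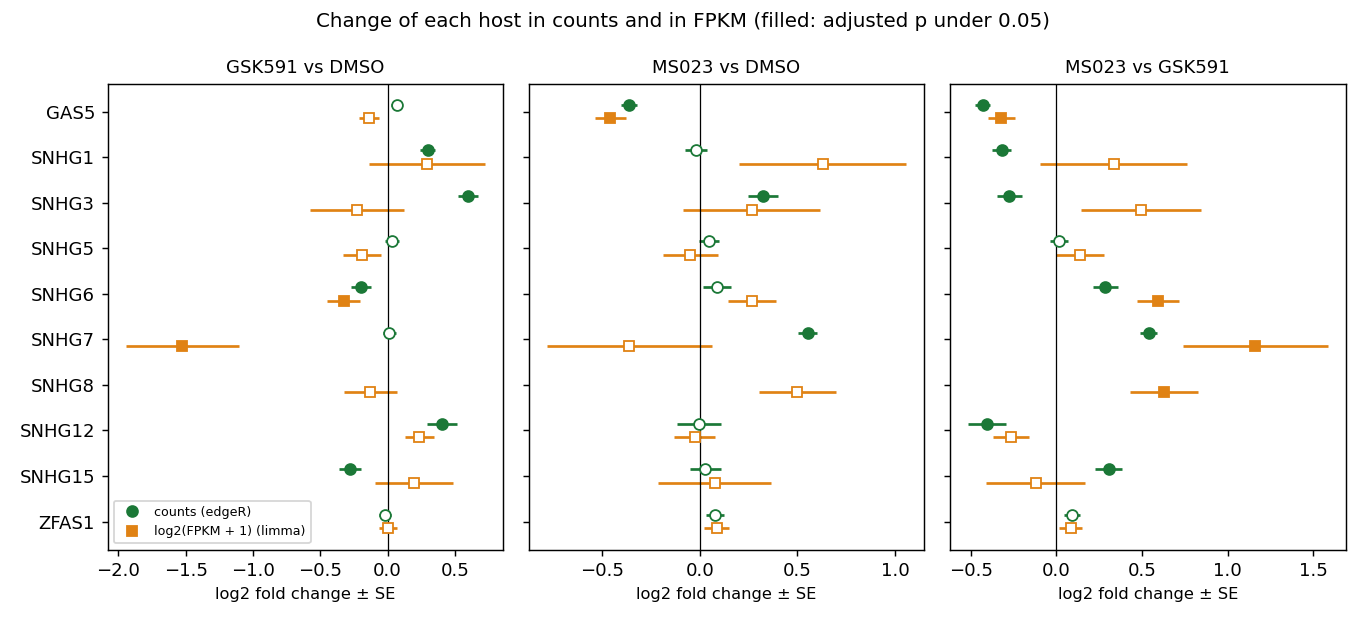
Log2 change ± SE of each host in the 3 comparisons, in counts (circles, edgeR) and in log2(FPKM + 1) (squares, limma), filled where the adjusted p was under 0.05. The SE in FPKM is widest for SNHG1 and SNHG7 (0.43 and 0.42), against 0.05 in counts, and SNHG7 in GSK591 against DMSO lies at 0.01 in counts and at -1.52 in FPKM.

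The ratio of FPKM to CPM per kilobase was taken in each library, where a constant ratio means that both tables order the libraries alike. For ZFAS1 the highest ratio was 1.07 times the lowest. For GAS5, SNHG5, SNHG12 and SNHG6 that spread was 1.28 to 1.47. It reached 2.55 for SNHG15, 4.11 for SNHG1, 4.81 for SNHG3 and 6.50 for SNHG7. The median ratio was 3.09 to 7.76 for 7 hosts but 141 for SNHG7 and 278 for SNHG3, so those 2 stood highest in FPKM while they were among the lower hosts in counts per kilobase.

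SNHG7 had 409, 938 and 290.3 FPKM in GSK591 libraries and 1669, 999 and 751 FPKM in MS023 libraries, against 1771, 1463 and 1026 FPKM in DMSO libraries. GSK591 lay below DMSO throughout and was lowest in replicates 1 and 3, where the lower bound of the authors' interval was 0. Without DMSO replicate 1 and GSK591 replicate 3 the call in GSK591 ended (log2 -0.98, limma adjusted p = 0.105), as it did with no filter on low values (0.053). SNHG1 stood at 153 FPKM in MS023 replicate 1, with a lower bound of 0, and at 38.9 to 39.1 FPKM in the other MS023 libraries. The lower bound was also 0 in DMSO replicate 2, at 38.1 FPKM. Without MS023 replicate 1 SNHG1 was lower in MS023 than in GSK591 in FPKM too (log2 -0.31, limma adjusted p = 0.0152, 0.0152 to 0.670 over all alternatives) and higher in GSK591 than in DMSO (0.29, adjusted p = 0.0115, 0.0115 to 0.781). SNHG15 stood at 23.4 FPKM in GSK591 replicate 1, again with a lower bound of 0, and at 8.59 and 9.40 FPKM in the other GSK591 libraries. Without it SNHG15 was higher in MS023 than in GSK591 in FPKM as in counts (log2 0.31, limma adjusted p = 0.0171, 0.0171 to 0.887 over all alternatives).

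GAS5 had 90.0, 92.3 and 93.0 FPKM in GSK591 libraries and 80.4, 70.5 and 69.5 FPKM in MS023 libraries, against 90.0, 109 and 106 FPKM in DMSO libraries. The MS023 libraries were lowest in this table too. GAS5 also passed as lower in GSK591 than in DMSO without DMSO replicate 1 (log2 -0.22, limma adjusted p = 0.0159, 0.0159 to 0.547 over all alternatives). SNHG6 had 86.8, 78.8 and 77.3 FPKM in GSK591 libraries and 145, 116 and 109 FPKM in MS023 libraries, against 86.0, 105 and 116 FPKM in DMSO libraries. As in counts, DMSO replicate 1 lay among the GSK591 libraries. SNHG12 averaged 11.8 ± 0.79 FPKM in GSK591, 9.72 ± 1.03 in MS023 and 9.96 ± 1.5 in DMSO, and ZFAS1 72.5 ± 4.62 FPKM in GSK591, 76.8 ± 1.33 in MS023 and 72.4 ± 5.75 in DMSO. SNHG5 averaged 226 ± 11 FPKM in GSK591, 252 ± 44.2 in MS023 and 260.5 ± 44.6 in DMSO. For SNHG12, ZFAS1 and SNHG5 limma made no call in FPKM as deposited over all libraries. SNHG12 was close in MS023 against GSK591 (adjusted p = 0.0537) and was called lower there in 5 of 14 alternatives, with centring on the median at log2 -0.34 (limma adjusted p = 0.00874). It was called higher in GSK591 than in DMSO in 2 of 14, with centring (0.32, adjusted p = 0.0127) and without DMSO replicate 3 (0.0432). SNHG5 was called lower in GSK591 than in DMSO without DMSO replicate 1 (log2 -0.34, limma adjusted p = 0.0352) and without DMSO 1 and GSK591 3 together (0.0472).

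SNHG8 (hg19 chr4:119199863-119200978), host of SNORA24, had 69.0, 63.1 and 66.6 FPKM in GSK591 libraries and 132, 88.0 and 93.5 FPKM in MS023 libraries, against 52.4, 90.9 and 79.8 FPKM in DMSO libraries. The MS023 libraries lay above the GSK591 libraries, and the DMSO libraries spanned both. The lower bound was 0 in MS023 replicates 2 and 3. Its difference from DMSO passed in neither inhibitor (limma adjusted p = 0.0679 in MS023 and 0.598 in GSK591), but it passed in MS023 without DMSO replicate 2 (log2 0.66, limma adjusted p = 0.0311, 0.0311 to 0.21 over all alternatives). Its call between the inhibitors ended with no filter on low values (0.0749) and without MS023 replicate 1 (adjusted p = 0.0657), GSK591 replicate 2 (0.0581) or GSK591 replicate 3 (0.05).

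SNORA73B is shown with the C/D box snoRNAs of ZFAS1, because these are snoRNAs measured beside their hosts. SNORA73B, SNORD12B and SNORD12C share 0 bases with the exon union of their hosts, and SNORD12 lies within it with all 90 bases. SNORA73A in SNHG3, SNORD50B in SNHG5, SNORD87 in SNHG6 and SNORA9 in SNHG15 also lie wholly within the exon union of their hosts. So do all snoRNAs in SNHG7 and most in SNHG1 and SNHG12. If the counting used such exons, counts of these hosts can include reads of snoRNAs or introns, which was not tested. Sequences are those of GENCODE v29 on GRCh38, plus strand, SNORA73B at chr1:28508559-28508762, SNORD12C at chr20:49278940-49279028, SNORD12B at chr20:49280319-49280409 and SNORD12 at chr20:49280683-49280772. Capitals mark the ACA box of SNORA73B, 3 bases from its end, and the C box (TGATGA) and D box (CTGA) of the others.
SNORA73B: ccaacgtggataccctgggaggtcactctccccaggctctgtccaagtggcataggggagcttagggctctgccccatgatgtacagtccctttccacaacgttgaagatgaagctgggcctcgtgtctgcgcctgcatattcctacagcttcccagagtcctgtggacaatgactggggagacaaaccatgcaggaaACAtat
SNORD12C: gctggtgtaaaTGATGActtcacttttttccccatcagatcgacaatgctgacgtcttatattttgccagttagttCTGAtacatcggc
SNORD12B: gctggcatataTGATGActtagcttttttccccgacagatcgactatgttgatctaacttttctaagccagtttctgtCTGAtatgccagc
SNORD12: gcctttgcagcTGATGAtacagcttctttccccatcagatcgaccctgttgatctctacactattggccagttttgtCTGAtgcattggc

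SNORA73B, an H/ACA box snoRNA that takes part in processing of ribosomal RNA, had 26.2, 20.5 and 19.4 CPM in GSK591 libraries and 24.2, 32.7 and 33.1 CPM in MS023 libraries, against 34.1, 19.3 and 13.8 CPM in DMSO libraries. DMSO replicate 1 was the highest of all 9 libraries and DMSO replicate 3 the lowest. With all libraries and the filter on low counts, no comparison passed (edgeR adjusted p = 0.978 in GSK591, 0.125 in MS023 and 0.1 between the inhibitors). The difference between the inhibitors, 0.45 higher in MS023, passed in 6 of 18 alternatives, with an adjusted p of 2.16e-15 to 0.272 over all 18. Among the 6 were the fits on the 6 libraries compared (0.00508), without MS023 replicate 1 (0.0429), without DMSO replicate 1 (0.0073) and without DMSO replicate 3 (0.0379). Without DMSO replicate 1 the log2 change was 0.42 in GSK591 (adjusted p = 0.0271, range 0.0144 to 1.00 over the alternatives) and 0.87 in MS023 (0.000219, range 5.05e-14 to 0.488). SNHG3 had 1776, 1297 and 1059 FPKM in GSK591 libraries and 1585, 2496 and 1721 FPKM in MS023 libraries, against 2850, 1342 and 1023 FPKM in DMSO libraries. In FPKM DMSO replicate 1 was thus also the highest library and DMSO replicate 3 the lowest, while in SNHG3 counts DMSO replicate 1 was the lowest. Without that library SNHG3 in FPKM was called higher in MS023 than in DMSO (log2 0.69, limma adjusted p = 0.0494, 0.0422 to 0.931 over all alternatives). This reading across tables was made after the values had been seen, and what part the snoRNA has in the FPKM of SNHG3 was not tested.

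**Figure D3:**
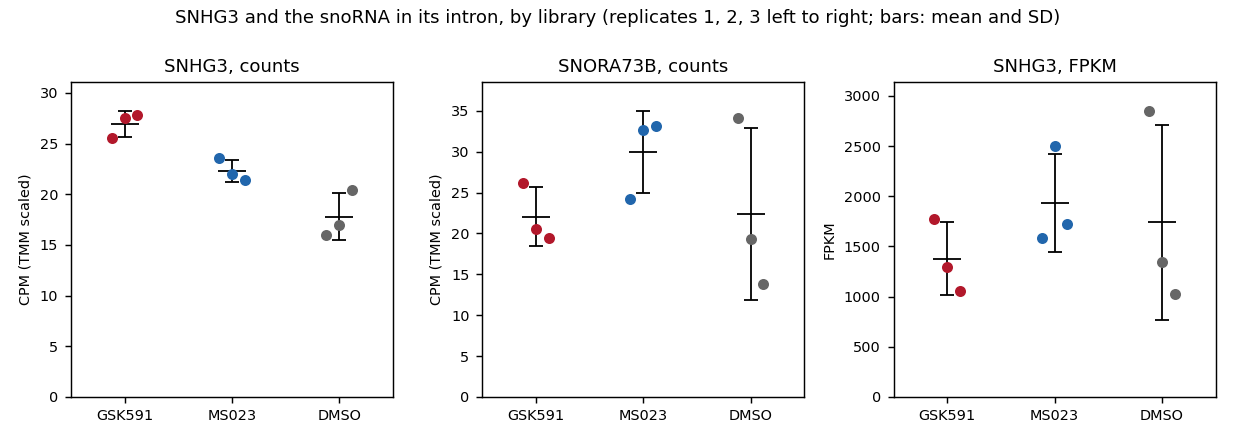
SNHG3 in counts, SNORA73B in counts and SNHG3 in FPKM, with a point for each library (replicates 1, 2 and 3 from left to right) and bars for the mean and SD of 3 libraries. DMSO replicate 1 is the highest library for SNORA73B (34.1 CPM) and for SNHG3 in FPKM (2850), and the lowest for SNHG3 in counts (15.98 CPM).

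The other snoRNAs counted inside hosts had far fewer reads. SNORD12B, in ZFAS1, had 2.49, 2.49 and 2.36 CPM in GSK591 libraries and 1.99, 2.97 and 2.80 CPM in MS023 libraries, against 1.88, 1.39 and 1.77 CPM in DMSO libraries. All treated libraries lay above all DMSO libraries, while ZFAS1 itself passed in neither comparison. The log2 change was 0.55 ± 0.17 in GSK591 (edgeR adjusted p = 0.0125) and 0.62 ± 0.17 in MS023 (adjusted p = 0.00726). In GSK591 the call ended without DMSO replicate 2 (adjusted p up to 0.0566 over the alternatives). SNORD12C averaged 1.98 ± 0.155 CPM in GSK591, 1.95 ± 0.473 in MS023 and 1.77 ± 0.0700 in DMSO, and SNORD12 1.27 ± 0.392, 1.09 ± 0.339 and 1.01 ± 0.185 CPM, and neither passed. SNORD99, in SNHG12, had 15 to 24 counts in GSK591 libraries, against 6 to 15 counts in DMSO libraries, and its change of 0.89 ± 0.37 (edgeR adjusted p = 0.0476) ended in 9 of 17 alternatives, up to an adjusted p of 0.171. SNORD78, in GAS5, averaged 0.498 ± 0.140 CPM in GSK591, 0.431 ± 0.155 in MS023 and 0.418 ± 0.119 in DMSO and did not pass. SNORD87, in SNHG6, had 0 counts in each library. All its 89 bases lie within the exon union of SNHG6, so 0 counts need not mean absence. Where its reads were assigned was not tested. In these counts, reads of a mature snoRNA and of unspliced host RNA around it cannot be told apart.

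Several hosts overlap another gene, and no source used here gives the strand setting of the counting, so reads in shared stretches cannot be told apart. FAM69B, on the opposite strand, shares 2686 bases with SNHG7. It averaged 8.86 ± 1.33 CPM in GSK591, 14.0 ± 0.613 in MS023 and 7.93 ± 1.03 in DMSO, and like SNHG7 it rose in MS023 (0.82, edgeR adjusted p = 1.18e-05) and did not pass in GSK591 (0.17, adjusted p = 0.187). Its part in the SNHG7 counts was not tested. RCC1, an exchange factor for the GTPase Ran, spans all 4914 bases of SNHG3 on the same strand. For this pair, reads in shared exons could not be told apart by strand under any setting. RCC1 averaged 73.9 ± 1.46 CPM in GSK591, 79.4 ± 2.89 in MS023 and 76.9 ± 0.715 in DMSO, and passed in neither comparison with DMSO (edgeR adjusted p = 0.184 in GSK591 and 0.301 in MS023). ZNFX1, a helicase gene sharing 250 bases with ZFAS1 on the opposite strand, rose in GSK591 (0.61, adjusted p = 2.13e-08) and in MS023 (0.50, adjusted p = 3.62e-07), where ZFAS1 did not pass. TRNAU1AP shares 3 bases with SNHG12 and fell in GSK591 (-0.83, adjusted p = 1.05e-06), where SNHG12 rose. MCMDC2 shares 366 bases with SNHG6 and rose in both GSK591 (0.53, adjusted p = 0.00493) and MS023 (0.66, adjusted p = 0.00122). ZBTB37 shares 802 bases with GAS5 and had log2 differences of -0.07 in GSK591 (adjusted p = 0.654) and -0.26 in MS023 (0.101). The MS023 difference of ZBTB37 passed in 3 alternatives, with an adjusted p down to 0.015. GAS5-AS1, which shares 43 bases with GAS5, was not matched in the count table. In MS023 against GSK591, FAM69B (0.65, edgeR adjusted p = 5.07e-05), TRNAU1AP (0.81, 1.02e-06) and RCC1 (0.10, 0.0203) were higher. ZNFX1 (-0.11, 0.0392) was lower, and MCMDC2 (0.415) and ZBTB37 (0.203) did not pass. The call of RCC1 was lost in 10 of 18 alternatives and that of ZNFX1 in 8 of 18.

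The counts for the lists that follow stand beside the shares of all genes given above, which were 30.1% higher and 32.4% lower in GSK591 against DMSO, 25.1% and 25.9% in MS023 against DMSO, and 33.6% and 31.7% in MS023 against GSK591. Among other noncoding snoRNA hosts, 12 of 19 listed were measured. Of these, 9 (75%) were higher and 1 lower in GSK591, with a median log2 change of 0.35, and 5 (41.7%) were higher and 3 lower in MS023, with a median of 0.13. Between the inhibitors, 2 were higher and 5 (41.7%) lower in MS023 than in GSK591, with a median of -0.13. MEG3, an imprinted RNA that shares its cluster with snoRNA host MEG8, was listed with these hosts and is among the 9 higher. It changed by 1.94 ± 0.09 in GSK591 (edgeR adjusted p = 2.58e-10), and MEG8 by 0.84 ± 0.19 (0.00124). SNHG17 fell there by 0.46 on the log2 scale. In MS023 DANCR (0.66 ± 0.07) and SNHG9 (0.45 ± 0.10) were higher, and MEG8 (-0.86 ± 0.22) and SNHG14 (-0.42 ± 0.04) lower. Over all 113 snoRNA genes tested, named SNORA or SNORD, 23 were higher and 5 lower in GSK591 (median 0.24), 3 higher and 9 lower in MS023 (median 0.02), and 4 higher and 28 lower in MS023 against GSK591 (median -0.34). The medians over all genes were 0.0058, -0.0030 and 0.0017 in the same order. The called shares of these snoRNA genes lie below those of all genes in each comparison and direction, also the highest ones, 20.4% higher in GSK591 and 24.8% lower in MS023 against GSK591. Many had few reads and wide errors, as SNORD78 (0.498 CPM, SE 0.33 in GSK591 against DMSO) beside GAS5 (69.9 CPM, SE 0.04). The lower shares therefore do not show that snoRNA genes changed less, and the part of depth was not tested.

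The protein-coding snoRNA hosts were mostly genes of ribosomal proteins and translation factors. Of 43 measured, 5 were higher and 23 lower in GSK591 (median -0.11) and 1 was higher and 21 lower in MS023 (median -0.11), so that 53.5% and 48.8% were lower. Set against GSK591, 11 (25.6%) were higher and 14 (32.6%) lower in MS023 (median 0.0046). RPS2 (-0.53 ± 0.04) fell most in GSK591, and TAF1D, a subunit of an RNA polymerase I factor (0.42 ± 0.05), and the chaperone HSPA8 (0.27 ± 0.03) rose most. In MS023 EEF1B2 (-0.39 ± 0.05) and EIF4G2 (-0.37 ± 0.02) fell most, and RPL23A (0.09 ± 0.03) was the one that rose. Ribosomal protein genes have many processed copies, so single values are uncertain. Proteins of snoRNA particles and their assembly had 12 of 16 lower and none higher in GSK591 (median -0.22), led by the methyltransferase fibrillarin, FBL (-0.46 ± 0.04), and the H/ACA protein GAR1 (-0.38 ± 0.09). In MS023 8 were lower and 1 higher (median -0.10), with NOP56 at -0.24 ± 0.03, GAR1 at -0.27 ± 0.09 and the assembly factor PIH1D1 at 0.24 ± 0.06. The lower members make up 75% of the list in GSK591 and 50% in MS023. Compared with GSK591, 7 of 16 (43.8%) were higher and none lower in MS023 (median 0.10), among them PIH1D1 (0.52 ± 0.06) and FBL (0.27 ± 0.04). That count was 4 without GSK591 replicate 2 and 4 at an adjusted p of 0.01, and with a filter of 1 CPM 4 were higher and 2 lower.

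Among 18 factors of NMD, 5 were higher and 10 lower in GSK591 (median -0.13) and 4 higher and 3 lower in MS023 (median -0.06). In GSK591 55.6% were thus lower, and in MS023 the shares lay below those of all genes. Against GSK591, 5 were higher and 5 lower in MS023 (median 0.08). The helicase DHX34 (0.94 ± 0.05) and SMG5 (0.45 ± 0.04), an adaptor of decay, rose most in GSK591, and MAGOHB (-0.49 ± 0.06), of the exon junction complex, and NBAS (-0.32 ± 0.03) fell most. In MS023 SMG5 (0.33 ± 0.04) and the helicase UPF1 (0.26 ± 0.04) rose, and MAGOHB (-0.35 ± 0.06) and NBAS (-0.30 ± 0.03) fell. Of 16 mRNAs described as NMD targets, 2 were higher and 8 lower in GSK591 (median -0.11), with GADD45A at 1.39 ± 0.07, ATF3 at 0.92 ± 0.12, GADD45B at -1.35 ± 0.06 and ASNS at -0.60 ± 0.05. In MS023 3 were higher and 7 lower (median -0.06), with GADD45B at 0.42 ± 0.06, HNRNPDL at 0.16 ± 0.04, UPP1 at -0.65 ± 0.06 and PTBP2 at -0.35 ± 0.05. The lower members were 50% of this list in GSK591 and 43.8% in MS023. Counts per gene pool all transcripts of a gene, so NMD-sensitive transcripts and others cannot be told apart here. Against GSK591, 6 were higher and 5 lower in MS023 (median 0.0078). All these calls are edgeR calls at an adjusted p under 0.05 over all genes, the lists were not tested as lists, and the hosts themselves had members called in both directions in each comparison.

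**Figure D4:**
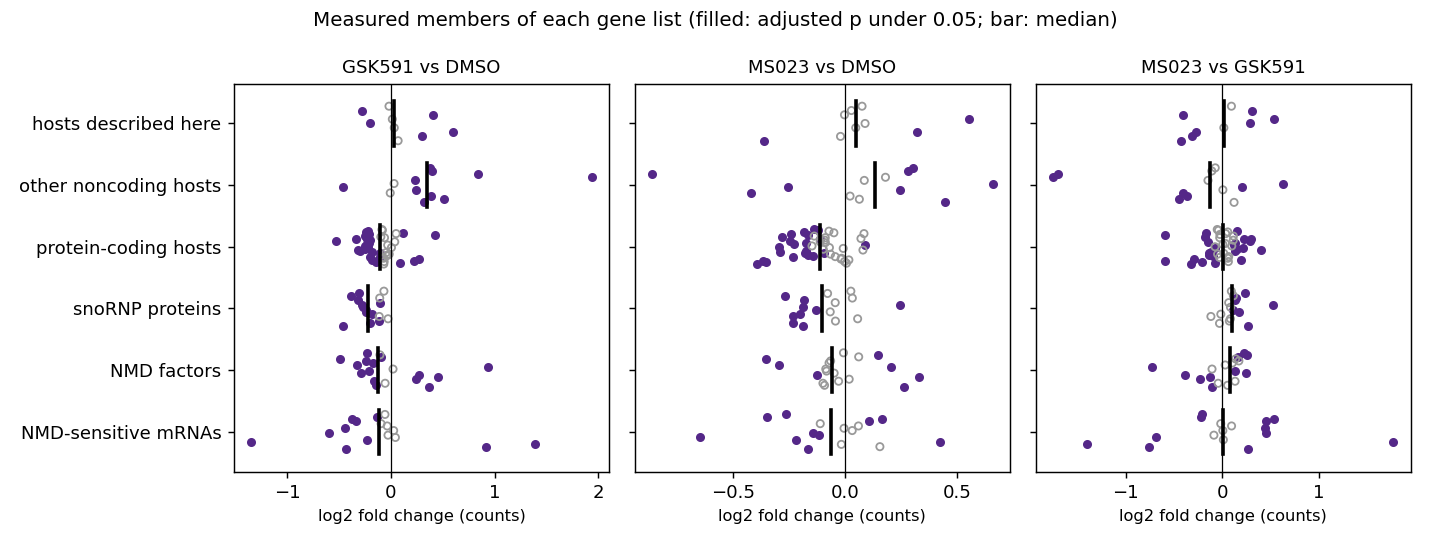
Log2 change in counts for the measured members of each gene list in the 3 comparisons, a point for each gene, filled where the edgeR adjusted p was under 0.05, with a bar at the list's median. In GSK591 against DMSO the other noncoding hosts have a median of 0.35 and the snoRNP proteins (proteins of snoRNA particles) a median of -0.22, with the hosts described here between them at 0.03.

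Among genes with a symbol, the pattern of GAS5 over the libraries was followed most closely by MGST1, USO1, FASTKD1, PM20D2 and PCOLCE2. Their Pearson r with GAS5 in log2 CPM over the 9 libraries was 0.990 to 0.993. This was the highest among those of the 18292 genes tested that had a symbol. All share the same libraries and the same 3 groups, and the r is given as a description of likeness only. In MS023 against DMSO these genes had log2 differences of -0.39, -0.38, -0.61, -0.54 and -1.24 in the order named, beside -0.36 for GAS5.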

How the data were processed

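Per the labels, total RNA was depleted of ribosomal RNA, primed with random hexamers and sequenced in pairs on a NextSeq 500. The deposited count table holds raw counts per gene, and the authors also deposited FPKM tables per library in the layout of Cufflinks. Per the submitters' processing notes, cutadapt, STAR, featureCounts, DESeq2 and hg19 were used. For versions, annotation and strand setting nothing is given in the sources used here. The members and gene lists were chosen with earlier results of these data known.

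Counts were fitted in R 4.3.3 with edgeR 4.0.16 (filterByExpr with minimum count 10 and minimum total 15, TMM, quasi-likelihood F-test, group as the only term, all 9 libraries, 18292 genes). FPKM was fitted with limma 3.58.1 (empirical Bayes with trend) as log2(FPKM + 1) of the deposited values, for 13526 genes with FPKM of at least 1 in at least 3 libraries, leaving out 108 identifiers listed more than once and 23 with a status other than OK. Such log2 changes understate those of low genes. P-values were two-sided and adjusted by Benjamini-Hochberg over all genes, with a threshold of 0.05. Scripts were tested on simulated data. Errors do not cover duplicate reads from PCR beyond their spread between libraries.

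Alternatives were RLE or total count scaling, no filter, a filter of 1 CPM in 3 libraries, a replicate block, each library left out, only the 6 libraries compared, DESeq2 1.42.0, an adjusted p of 0.01, and, for FPKM, a pseudocount of 0.1, no filter and centring. Leaving out DMSO replicate 1 and GSK591 replicate 3 together was chosen after seeing the data. Named genes were all members, the genes overlapping them and snoRNA genes inside them. Added to these were up to 2 largest rises and falls per list and comparison, and the 5 genes with a symbol most like GAS5. Some genes that the lists and this rule take are not reported here. Host coordinates are hg19 from the FPKM tables. Strands, exon lengths and snoRNA sequences are from GENCODE v29 (GRCh38), matched by identifier.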

Additional observations from a re-analysis of the deposited data

How the results depend on the processing

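In counts, the number of hosts called stayed within 1.5 times under every alternative: 4 to 5 in GSK591 against DMSO, 3 to 4 in MS023 against DMSO, 7 to 8 in MS023 against GSK591 and 7 among the groups. Of 486 alternative values for the hosts in counts, 450 kept direction and side of the threshold, 7 lost a call (all SNHG6 in GSK591 against DMSO), 5 gained one and 24 changed sign, none of the 24 called before or after. In FPKM 364 of 420 kept both, 21 lost a call, 15 gained one and 20 changed sign, 18 of them called neither before nor after. The hosts called in FPKM in GSK591 against DMSO (2) were 0 without a filter and 1 with a replicate block, and 1 to 4 with each library left out, 4 without DMSO replicate 1. In MS023 against DMSO (1) they were 1 to 2, with 2 without DMSO replicate 1, without DMSO replicate 2, or without DMSO 1 and GSK591 3. In MS023 against GSK591 (4) they were 2 without a filter and 2 to 5 with each library left out, 2 without GSK591 replicate 3. The cause was not tested.

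Signs changed as follows (log2). With total counts, GSK591 against DMSO gave ZFAS1 0.0418, RCC1 0.0049 and SNORA73B 0.0559, MS023 against DMSO gave SNHG1 0.018, SNHG12 0.0349 and TRNAU1AP 0.0212, and SNHG5 was -0.0053 in MS023 against GSK591. With a filter of 1 CPM, ZFAS1 was 0.0274 and SNORA73B 0.0387 in GSK591, SNHG12 0.0033 in MS023 and SNHG5 -0.0233 between inhibitors. SNHG12 in MS023 was 0.0136 with no filter and 0.0009 with only the 6 libraries compared. Without DMSO 1 and GSK591 3, GSK591 against DMSO gave SNHG5 -0.0384, SNORD78 -0.0891, SNORA73B 0.51, SNHG3 in FPKM 0.37 and ZFAS1 in FPKM -0.0434, MS023 against DMSO gave SNHG15 -0.0245, SNORD78 -0.14 and SNORD12 -0.007, and MCMDC2 was -0.0125 between inhibitors.

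With each library left out in turn, ranges that crossed 0 in GSK591 against DMSO were -0.0541 to 0.0323 (ZFAS1), -0.17 to 0.0927 (ZBTB37), -0.27 to 0.42 (SNORA73B) and -0.0018 to 0.0665 (SNHG7), and in FPKM -0.23 to 0.44 (SNHG15), -0.0622 to 0.045 (ZFAS1), -0.54 to 0.20 (SNHG3) and -0.36 to 0.0322 (SNHG8). In MS023 against DMSO they were -0.0957 to 0.14 (SNHG12), -0.20 to 0.25 (SNORD78), -0.0618 to 0.0964 (TRNAU1AP), -0.14 to 0.325 (SNORD12), -0.024 to 0.10 (SNHG15) and -0.0476 to 0.0433 (SNHG1), and in FPKM -0.0195 to 0.96 (SNHG1), -0.20 to 0.0406 (SNHG5), -0.14 to 0.0462 (SNHG12) and -0.0456 to 0.69 (SNHG3). In MS023 against GSK591 they were -0.0246 to 0.0554 (SNHG5), -0.15 to 0.18 (SNORD12C), -0.0126 to 0.23 (MCMDC2), -0.46 to 0.0502 (SNORD12), -0.44 to 0.0072 (SNORD78) and -0.0442 to 0.24 (SNORD12B), and in FPKM -0.37 to 0.31 (SNHG15), -0.31 to 0.66 (SNHG1) and -0.0012 to 0.22 (SNHG5).

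Replicate numbers were shared by the groups, but over 9 same-numbered pairs the deviations from the group means correlated with r of -0.641 to 0.431, 2 of them over 0.1, so the numbers were not taken to pair the libraries. With the replicate block the hosts called were 5, 3 and 7 in the 3 comparisons, as without it, and in FPKM 1 in GSK591 against DMSO. SNORA73B was then 0.0239 in GSK591 and SNHG12 0.0091 in MS023. Depth limits the small snoRNAs, with 6 to 24 counts of SNORD99 per library.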
